A study of Mus musculus with 18 samples.

Results

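The genes described here encode 10 subunits of the Polycomb repressive complexes, chosen by name: Ezh1, Ezh2, Suz12, Eed, Jarid2, Mtf2, Rnf2, Bmi1, Cbx7 and Pcgf6. Every probe that carried one of these symbols in the platform annotation was taken, which gave 13 probes for 9 of the 10 genes out of 46632 probes on the array. No probe carried the symbol Ezh1, so this gene was not analysed here. A probe was kept where its detection p-value was under 0.05 on both arrays of at least 1 group, which left 9 probes of 7 genes, among 10980 genes kept of 17711 with a probe. Suz12 and Rnf2 were dropped by that filter.

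Polycomb proteins keep developmental genes silent in embryonic stem (ES) cells and maintain that silence through cell division. Polycomb repressive complex 2 (PRC2) methylates a lysine in the tail of histone H3 through its catalytic subunit Ezh2 or Ezh1, and it needs Eed, which binds the methylated tail, and Suz12, its scaffold. Mtf2 and Jarid2 help bring it to its targets. PRC1 ubiquitinates histone H2A through Rnf2, and its variants are set apart by a Pcgf protein, such as Bmi1 or Pcgf6, and by a reader of the methyl mark, such as Cbx7.

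RNA came from CGR8 mouse ES cells of strain 129P2/Ola and was hybridized to 18 arrays of the Sentrix Mouse-6 v1.1 BeadChip (Illumina), 2 for each of 9 groups. The first 3 groups were CGR8 cells after 0, 1 and 3 days without leukaemia inhibitory factor (LIF), the cytokine that keeps these cells undifferentiated. Another 3 groups were CGR8 cells at the same days with cyclosporin A (CsA), an inhibitor of the phosphatase calcineurin. The last 3 were ideltaCnAES cells, also labelled as CGR8 of strain 129P2/Ola, after 0, 1 and 4 days without tetracycline, whose removal induces deltaCnA, an active form of the calcineurin catalytic subunit. The labels do not give the promoter behind deltaCnA, whether the ideltaCnAES cells are 1 clone, how long the day 0 cells with CsA had received it, or whether replicates were separate cultures. All p-values therefore measure the spread between these arrays, which may be technical. The series asks which genes calcineurin and its NFAT factors regulate.

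Replicate correlations across genes (which are not independent replicates) were 0.992 to 0.996. They compare arrays within a group only. The lowest intensities differed between the deltaCnA arrays and the others, as given below. Of 7 ES cell markers, 6 had a probe, and all 6 (Pou5f1, Sox2, Nanog, Zfp42, Esrrb and Utf1) were detected on both arrays of every group. Their summed level, the sum of normalized intensities on the linear scale, was 37226 to 37914 at day 0 of LIF withdrawal and 18058 to 19393 at day 3, against 31199 to 31210 at day 3 with CsA. These markers did not all move alike from day 0 to day 3 of LIF withdrawal. The log2 group means of Esrrb (14.04 to 12.18), Nanog (13.06 to 11.63), Zfp42 (10.30 to 8.10) and Sox2 (10.44 to 9.997) were lower. Pou5f1 differed little (12.83 to 12.74), and Utf1 was higher (11.085, SD 0.37, to 11.43). At day 3 the mean of Utf1 was lower with CsA (11.20) than without, while those of the other kept markers were higher. Markers of other cell types were dimmer. The summed level of the 3 kept of 5 trophectoderm markers went from 187 to 232 at day 0 to 759 to 769 at day 3 of LIF withdrawal, and was 308 to 315 at day 3 with CsA, with Elf5 and Hand1 not kept. That of the 4 kept of 7 primitive endoderm markers went from 220 to 233 to 514 to 543, and was 352 to 357 with CsA, with Sox17, Foxa2 and Afp not kept. Among these 4, Gata6 and Sox7 were not detected on either array at day 3 without CsA. Against the direction of the sum, Gata6 was at least 1.84-fold higher at day 3 with CsA than without. The summed level of the 3 kept of 7 fibroblast markers went from 228 to 294 to 486 to 516, and was 186 to 195 with CsA, with Col1a1, Col1a2, Col3a1 and Lum not kept. The 2 kept of 4 blood markers summed to 70.8 to 112 in every group, with Ptprc and Hbb-b1 not kept. Of the marker lists, 5 of the 7 primitive endoderm genes and 3 of the 5 trophectoderm genes are also on the list of Polycomb target genes used below. The ES cell, trophectoderm, primitive endoderm and fibroblast sums thus differed between days 0 and 3 of LIF withdrawal, and their part in the changes below was not tested. Fewer cells of a type and less RNA per cell cannot be told apart in these bulk samples.

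Ezh2 and Eed had the widest ranges of the 7 genes over the 9 groups, so the sequence around the start of each is shown, as 5′ to 3′ on the gene's strand, from 250 bases before to 50 after a RefSeq start (build GRCm38.p6). All 10 genes had such a window. The Ezh2 window lies at chr6:47594981-47595280 and the Eed window at chr7:89980927-89981226, both on the minus strand. Capitals mark matches on either strand to an E2F motif (TTTCCCGC, TTTCGCGC, TTTGCCGC or TTTGGCGC), a STAT motif (TTCNNNGAA), an NFAT core (GGAAAA) or a CCAAT box (CCAAT). E2F factors act in the cell cycle, STAT3 carries the LIF signal and NFAT factors are activated by calcineurin.
Ezh2: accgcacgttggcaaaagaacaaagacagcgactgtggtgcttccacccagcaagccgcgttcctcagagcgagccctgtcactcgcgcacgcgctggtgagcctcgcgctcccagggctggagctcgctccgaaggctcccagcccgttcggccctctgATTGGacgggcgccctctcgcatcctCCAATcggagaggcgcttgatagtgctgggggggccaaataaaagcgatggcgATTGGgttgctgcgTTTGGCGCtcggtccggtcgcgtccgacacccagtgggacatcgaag
Eed: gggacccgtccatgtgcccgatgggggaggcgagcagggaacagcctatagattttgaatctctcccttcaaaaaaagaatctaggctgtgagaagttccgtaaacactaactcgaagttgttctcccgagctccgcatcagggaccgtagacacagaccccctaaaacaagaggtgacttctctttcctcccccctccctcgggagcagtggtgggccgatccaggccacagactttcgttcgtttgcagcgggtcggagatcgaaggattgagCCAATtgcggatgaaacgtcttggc
The Ezh2 window held 1 E2F match and 3 CCAAT boxes, and the Eed window held 1 CCAAT box. No STAT or NFAT match was found in either. Over all 32851 windows of 300 bases, 2.26% held the E2F motif, 8.3% the STAT motif, 23.4% the NFAT core and 37.4% a CCAAT box. Of the other members, Suz12 held 1 E2F match and 2 NFAT cores, Pcgf6 held 1 STAT match, and Bmi1, Cbx7 and both windows of Jarid2 held 1 NFAT core each. A match describes the letters in the window and is not a shown binding site.

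Values are given as log2 of the normalized intensity, array by array, with replicate 1 first. Changes are differences of group means (n = 2 each) ± SE from a limma fit over all genes, and a gene is said to have risen or fallen where its Benjamini-Hochberg adjusted p was under 0.05. The day 0 arrays are shared by the comparisons of a series, so results at days 1 and 3 are not independent of each other. Where 2 groups are said not to overlap, this describes 2 arrays against 2, which can lie apart without a difference. The share of all genes with such groups was not counted. The share of all 10980 genes called in the same direction is given in parentheses after each count. Of the 7 genes, 0 rose (3.72%) and 1 fell (4.69%) at day 1 of LIF withdrawal. At day 3, 1 rose (18.4%) and 2 fell (19.8%). With CsA, 0 rose (2.34%) and 1 fell (2.19%) at day 1, and 3 rose (14.9%) and 1 fell (14.6%) at day 3. CsA against no CsA gave 0 higher (6.17%) and 2 lower (6.99%) at day 0. It gave 0 higher (5.42%) and 1 lower (5.34%) at day 1, and 1 higher (19%) and 1 lower (19.1%) at day 3. The test of whether the change from day 0 differed with CsA gave 0 higher (0.0182%) and 0 lower (0.0546%) at day 1, and 2 higher (7.99%) and 0 lower (7.3%) at day 3. On induction of deltaCnA 0 rose (6.54%) and 0 fell (4.63%) at day 1, and 0 rose (2.65%) and 0 fell (0.774%) at day 4. Leaving out single arrays lowered the gene counts behind many of these shares, among them those for deltaCnA at day 1 (from 1226 genes to as few as 239) and at day 4 (from 376 to 108) and for CsA at day 0 (from 1446 to 465). Several of these counts lie near the share of all genes called, and the genes below are given for their own values.

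**Figure D1:**
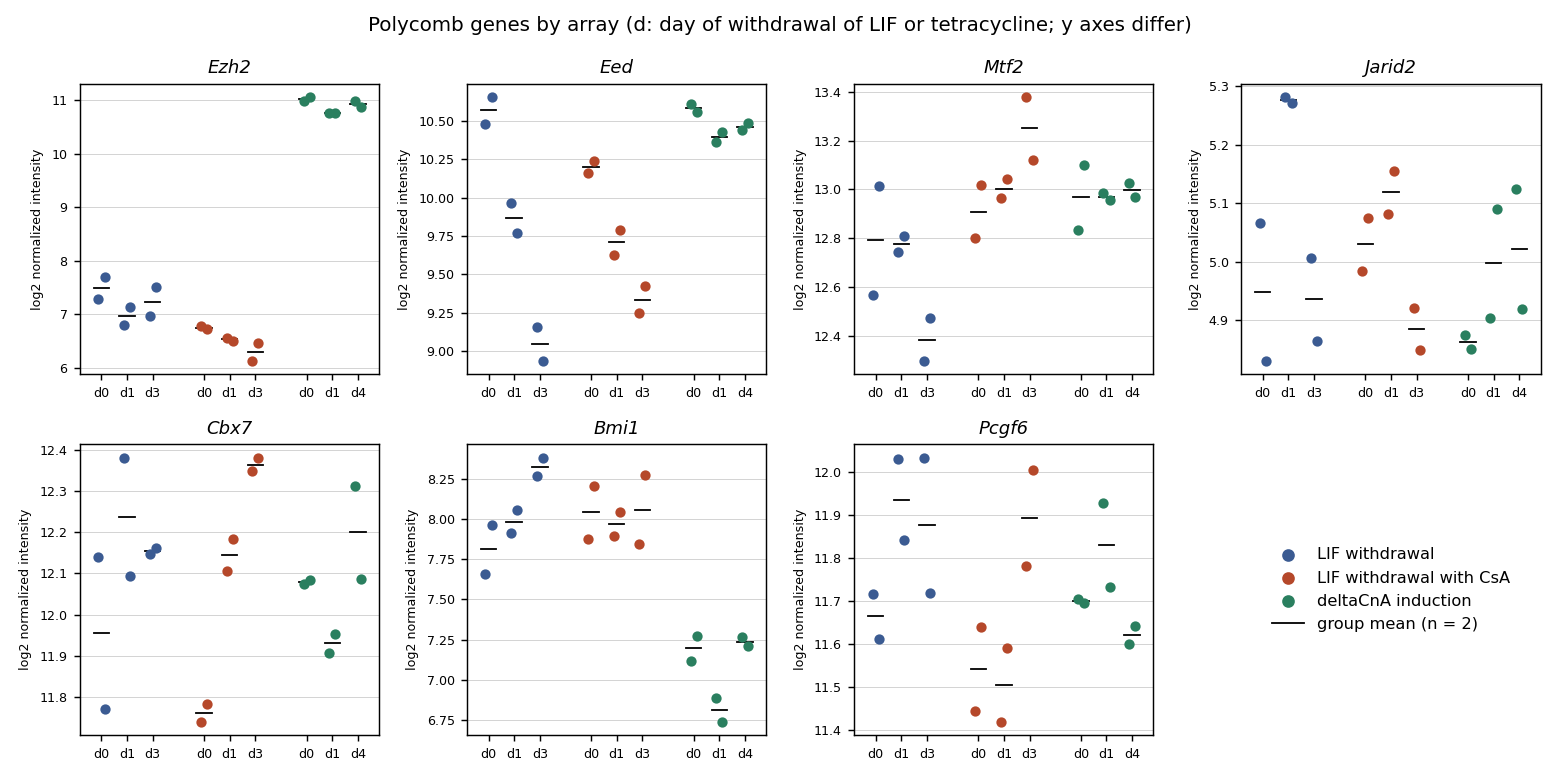
Log2 normalized intensity (y axis, a separate scale for each gene) of the 7 kept Polycomb genes on all 18 arrays, by group and day (x axis). Points are arrays, and lines are means of 2. Ezh2 lies above 10.7 on the 6 deltaCnA arrays and below 7.7 on the other 12, and Eed steps down over the days without LIF.

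Ezh2, the methyltransferase of PRC2, was higher in the deltaCnA line than in CGR8 cells by more than any other gene. In the deltaCnA line the kept probe (ILMN_1234171) read 10.99 and 11.06 at day 0, 10.75 and 10.77 at day 1, and 10.99 and 10.88 at day 4. In CGR8 cells without CsA it read 7.29 and 7.69 at day 0, 6.79 and 7.13 at day 1, and 6.96 and 7.51 at day 3. All 6 deltaCnA arrays were above all 12 CGR8 arrays, with a gap of 3.06 between the nearest. The deposited intensities, before any normalization here, were 1776 to 2821 on the deltaCnA arrays and 50.05 to 178 on the others. At day 0, before induction, the line was 11.6-fold higher than CGR8 cells (log2 difference 3.54 ± 0.18, adjusted p = 4.22e-12).

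The line comparison called 1 member higher (Ezh2, with 6.65% of all genes) and 1 lower (Bmi1, with 10.8%). Ezh2 ranked 1 of 10980 genes by this difference, and it was the 1 gene at least 8-fold higher, while the 2 genes at least 8-fold lower were Zfp472 (-5.06) and Hopx (-3.01), named after their values were seen. The next genes above 0 were Psmc1 (2.69), Mobp (2.07) and Fgfr2 (1.82). All 6 deltaCnA arrays lay above all 12 others for 121 genes (1.1%), and Ezh2 ranked 1 by the width of that gap. The second Ezh2 probe (ILMN_2606429) was detected on 0 of 18 arrays, so the difference rests on 1 probe. The lowest intensity on an array was -57.95 to -47.00 for the deltaCnA arrays and -29.37 to -23.71 for the others, and the labels name no hybridization batch. The line and the set of arrays cannot be told apart.

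**Figure D2:**
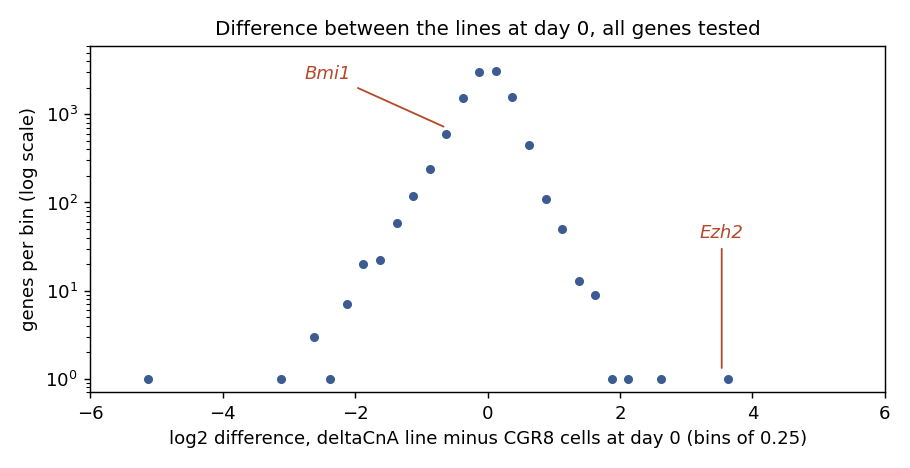
Number of genes (y axis, log scale) by log2 difference between the deltaCnA line and CGR8 cells at day 0 (x axis, bins of 0.25), for 10980 genes. Ezh2 stands alone at 3.54, and Bmi1 lies at -0.62 among many other genes.

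Within CGR8 cells, Ezh2 was lower with CsA. The arrays with CsA read 6.78 and 6.72 at day 0, 6.55 and 6.51 at day 1, and 6.13 and 6.46 at day 3. The groups with and without CsA did not overlap at any day, which groups of 2 arrays can show without a difference. The difference was -0.74 ± 0.18 at day 0 (adjusted p = 0.0081) and -0.94 ± 0.18 at day 3 (adjusted p = 0.00018), a 1.92-fold lower level. At day 1 it was -0.43 ± 0.18 and did not pass the test (adjusted p = 0.128). The day 0 call was lost without replicate 2 of day 0 without CsA (-0.54, adjusted p = 0.128) and with median scaling of the arrays in place of quantile normalization (-0.77, adjusted p = 0.0569), and the day 3 call was kept without each array in turn.

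Over the days, the changes of Ezh2 did not pass the test. Without CsA its change was -0.53 ± 0.18 at day 1 (adjusted p = 0.0687) and -0.25 ± 0.18 at day 3 (adjusted p = 0.284). Without replicate 1 of day 0 the first became -0.73 (adjusted p = 0.0338), and without replicate 2 of day 3 the second became -0.53 (adjusted p = 0.0426). With CsA the change was -0.22 ± 0.18 at day 1 (adjusted p = 0.693) and -0.45 ± 0.18 at day 3 (adjusted p = 0.0575), the latter -0.62 (adjusted p = 0.0328) without replicate 2 of day 3. That change at day 3 also passed with the values of the deposited series matrix (-0.56, adjusted p = 0.0478) and among probes detected on all 18 arrays (adjusted p = 0.0499). The interaction at day 3 was -0.20 ± 0.25 (adjusted p = 0.681). Inducing deltaCnA gave -0.27 ± 0.18 at day 1 (adjusted p = 0.38) and -0.10 ± 0.18 at day 4 (adjusted p = 0.885).

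In the order of the group means, the 3 deltaCnA groups stood at 10.76 to 11.03. Next came CGR8 without CsA at day 0 (7.49), day 3 (7.24) and day 1 (6.96), whose arrays overlapped from each to the next. The groups with CsA followed at day 0 (6.75), day 1 (6.53) and day 3 (6.30), each lower than the last in mean and with no overlap of arrays.

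Eed, the subunit that reads the methylated histone tail, fell at each later day without LIF, with and without CsA. Its bright probe (ILMN_2765015) read 10.48 and 10.66 at day 0, 9.97 and 9.77 at day 1, and 9.16 and 8.93 at day 3. These groups did not overlap, and both day 3 arrays were the lowest of all 18. The fall was 0.70 ± 0.12 on the log2 scale at day 1 (change -0.70, 1.63-fold, adjusted p = 0.000282) and reached 2.87-fold at day 3 (change -1.52 ± 0.12, adjusted p = 4.14e-10). The deposited intensities went from 1530 and 1595 to 489 and 515. Both calls were kept under the 11 alternative settings and without each array in turn, although the size at day 3 fell to -0.75 with the mean of both Eed probes.

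With CsA, Eed started lower and fell less far. The arrays read 10.16 and 10.24 at day 0, 9.62 and 9.79 at day 1, and 9.24 and 9.42 at day 3, again with no overlap between days. The change was -0.49 ± 0.12 at day 1 (adjusted p = 0.0147) and -0.87 ± 0.12 at day 3 (1.82-fold, adjusted p = 7.23e-06). The day 1 call was lost when any of 3 arrays with CsA was left out, namely day 0 replicate 1 (-0.53, adjusted p = 0.0722), day 0 replicate 2 (-0.46, adjusted p = 0.13) and day 1 replicate 1 (-0.41, adjusted p = 0.199), and also with median scaling (-0.55, adjusted p = 0.349) or the mean of both Eed probes (-0.47, adjusted p = 0.0647). The day 3 call was kept in all of these repeats. At day 3 the change from day 0 differed with CsA by 0.66 ± 0.17 (adjusted p = 0.00932). That difference became 0.55 (adjusted p = 0.0591) without replicate 2 of day 3 without CsA, and 0.75 (adjusted p = 0.174) with median scaling.

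At a given day Eed differed little with CsA. It was lower with CsA at day 0 (difference -0.37 ± 0.12, adjusted p = 0.0433), a call that ended under 6 of 11 alternative settings. It also ended without replicate 2 of day 0 without CsA (-0.28, adjusted p = 0.27) and without either array of day 0 with CsA (replicate 1 left out, -0.33, adjusted p = 0.224, replicate 2 left out, -0.41, adjusted p = 0.0969). At day 1 the difference was -0.16 ± 0.12 (adjusted p = 0.447) and the arrays overlapped. At day 3 it was 0.29 ± 0.12 (adjusted p = 0.0614), and 0.40 (adjusted p = 0.0361) without replicate 1 of day 3 without CsA.

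In the deltaCnA line Eed read 10.61 and 10.56, then 10.36 and 10.43, then 10.44 and 10.48 at days 0, 1 and 4. Its change was -0.19 ± 0.12 at day 1 (adjusted p = 0.348) and -0.12 ± 0.12 at day 4 (adjusted p = 0.728), and at day 0 the line differed from CGR8 cells by 0.02 ± 0.12 (adjusted p = 0.948). By group mean, the order ran from the deltaCnA groups and CGR8 at day 0 (10.39 to 10.58), through day 0 with CsA (10.20), day 1 (9.87), day 1 with CsA (9.71) and day 3 with CsA (9.33), to day 3 (9.05). Of these neighbours, CGR8 at day 0 overlapped with the deltaCnA line at days 0 and 4, and day 1 with CsA overlapped with day 1 without it.

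A second Eed probe (ILMN_1253609) was dim, and its changes did not pass the test in any of the comparisons given here. It was detected on 13 of 18 arrays, with group means from 4.79 to 5.70. Its change was -0.41 ± 0.21 at day 1 of LIF withdrawal (adjusted p = 0.323), -0.45 ± 0.21 at day 1 with CsA (adjusted p = 0.378) and -0.33 ± 0.21 at day 3 with CsA (adjusted p = 0.282), in the direction of the bright probe. At day 3 of LIF withdrawal, where the bright probe fell furthest, its change was 0.03 ± 0.21 (adjusted p = 0.943), and its CsA by day interaction was -0.36 ± 0.30 (adjusted p = 0.527). The Eed results therefore rest on the bright probe. With the mean of both probes in its place, the change at day 3 of LIF withdrawal was -0.75 (adjusted p = 0.000258), the interaction at day 3 was 0.15 (adjusted p = 0.693) and the CsA difference at day 0 was -0.02 (adjusted p = 0.94).

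Mtf2, an accessory subunit that binds DNA and directs PRC2 to CpG-rich sites, had day 3 changes of opposite sign with and without CsA. Its brightest probe (ILMN_2703913) read 12.57 and 13.01 at day 0, 12.74 and 12.81 at day 1, and 12.30 and 12.47 at day 3 of LIF withdrawal. With CsA it read 12.80 and 13.02, 12.96 and 13.04, and 13.38 and 13.12. The day 3 arrays with CsA were the highest of all 18 and those without it the lowest.

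At day 3 Mtf2 fell without CsA (-0.41 ± 0.13, 1.33-fold, adjusted p = 0.0153) and rose with it (0.34 ± 0.13, 1.27-fold, adjusted p = 0.0499). With CsA its level stood 1.83-fold above that without (0.87 ± 0.13, adjusted p = 1.19e-05), and the change from day 0 differed by 0.75 ± 0.18 (adjusted p = 0.00668). The difference at day 3 was kept under every setting and without each array. The fall did not pass when day 0 replicate 2 (-0.18, adjusted p = 0.347) or day 3 replicate 1 (-0.32, adjusted p = 0.147) was left out, was -0.63 without day 0 replicate 1, and had an adjusted p of 0.0506 with no intensity trend. The rise was lost under 8 of 11 alternative settings, without replicate 1 of day 0 with CsA (0.23, adjusted p = 0.309) and without replicate 1 of day 3 with CsA (0.21, adjusted p = 0.383). The interaction was 0.53 (adjusted p = 0.0557) without replicate 2 of day 0 without CsA, and 0.62 (adjusted p = 0.0556) without replicate 1 of day 3 with CsA.

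The second Mtf2 probe (ILMN_2452440) had day 3 changes of the same sign, larger without CsA and smaller with it. It read 11.32 and 10.85 at day 0 and 10.38 and 9.9999 at day 3 without CsA, and 11.21 and 11.09 at day 0 and 11.50 and 11.34 at day 3 with it. Adjusted over all 21691 kept probes, its fall without CsA was -0.89 ± 0.14 (adjusted p = 1.46e-05, 32.9% of probes called). Its change with CsA was 0.27 ± 0.14 and did not pass the test (adjusted p = 0.16, 24.8% of probes called). Its level at day 3 was 2.35-fold above that without CsA (1.23 ± 0.14, adjusted p = 2.26e-07, 32.5% of probes called), and its interaction was 1.16 ± 0.19 (adjusted p = 0.000208, 11.8% of probes called). In the same limma fit over probes, the rise of the brightest probe with CsA did not pass either (0.34, adjusted p = 0.0576).

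**Figure D3:**
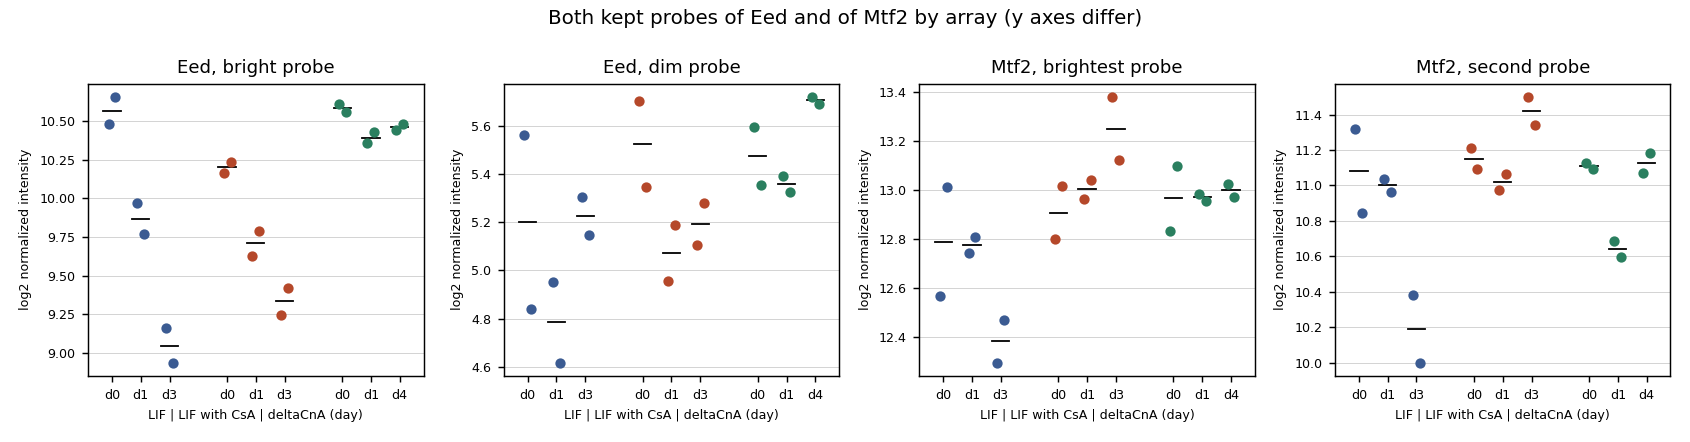
Log2 normalized intensity (y axes, separate scales) of both kept probes of Eed and of Mtf2 by array, with days of each series along the x axis. Points are arrays and lines are means of 2. The Eed probes differ, with group means of 9.05 and 5.23 at day 3 of LIF withdrawal after 10.57 and 5.20 at day 0, while both Mtf2 probes are lowest at day 3 of LIF withdrawal and highest at day 3 with CsA.

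At earlier days Mtf2 did not pass the test in either series. Its change at day 1 was -0.01 ± 0.13 without CsA (adjusted p = 0.977) and 0.09 ± 0.13 with it (adjusted p = 0.855). CsA against none gave 0.12 ± 0.13 at day 0 (adjusted p = 0.615) and 0.23 ± 0.13 at day 1 (adjusted p = 0.298). In the deltaCnA line the bright probe read 12.84 and 13.10, 12.98 and 12.96, and 13.03 and 12.97, with changes of 0.00 ± 0.13 at day 1 (adjusted p = 0.996) and 0.03 ± 0.13 at day 4 (adjusted p = 0.955). There the probes differed, since the second fell by 0.47 on the log2 scale at day 1 (adjusted p = 0.0339 over all probes, 8.34% of probes called), from 11.12 and 11.09 to 10.68 and 10.59. The line's Mtf2 level at day 0 differed from that of CGR8 cells by 0.18 ± 0.13 (adjusted p = 0.385).

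Jarid2, a recruiting cofactor that also stimulates PRC2, was near the limit of detection. Its kept probe was detected on 3 of 18 arrays, both at day 1 of LIF withdrawal (5.28 and 5.27) and 1 at day 1 with CsA. On all arrays it read between 4.83 and 5.28, and it was called in 0 of 12 comparisons. Its second probe was detected on 0 of 18 arrays. Suz12 and Rnf2 had 1 probe each, also detected on 0 of 18 arrays, with deposited intensities of -8.09 to 9.44 and -8.92 to 10.3. An undetected probe bounds only its own signal and not the level of the gene. Of the 2 Ezh2 probes, for example, 1 was detected on 18 of 18 arrays and the other on 0. Nothing can be said of changes of Jarid2, Suz12 or Rnf2.

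Cbx7, the chromodomain subunit of canonical PRC1 in ES cells, rose in CGR8 cells with CsA. Its arrays there read 11.74 and 11.78 at day 0, 12.11 and 12.18 at day 1, and 12.35 and 12.38 at day 3. The days did not overlap. The change was 0.38 ± 0.12 at day 1 (adjusted p = 0.0695) and 0.60 ± 0.12 at day 3 (1.52-fold, adjusted p = 0.000436), and the day 3 call was kept without each array in turn but not with median scaling (0.46, adjusted p = 0.113).

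Without CsA, Cbx7 read 12.14 and 11.77 at day 0, 12.38 and 12.09 at day 1, and 12.15 and 12.16 at day 3. The day 0 replicates were far apart. Its change was 0.28 ± 0.12 at day 1 (adjusted p = 0.168) and 0.20 ± 0.12 at day 3 (adjusted p = 0.2). Without replicate 1 of day 0 these became 0.47 (adjusted p = 0.0289) and 0.38 (adjusted p = 0.0237). The CsA by day interaction at day 3 was 0.40 ± 0.17 (adjusted p = 0.111), and 0.59 (adjusted p = 0.0216) without replicate 2 of day 0, so a different response with CsA depends on which day 0 array is used. CsA against none gave -0.19, -0.09 and 0.21 at days 0, 1 and 3, with adjusted p-values of 0.306, 0.694 and 0.177. In the deltaCnA line Cbx7 read 12.07 and 12.09, 11.91 and 11.95, and 12.31 and 12.09, with no change that passed the test.

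Bmi1 (Pcgf4), the Pcgf subunit of a canonical PRC1, rose at day 3 of LIF withdrawal. Its arrays read 7.66 and 7.96 at day 0, 7.91 and 8.06 at day 1, and 8.27 and 8.38 at day 3. The change was 0.17 ± 0.17 at day 1 (adjusted p = 0.666) and 0.52 ± 0.17 at day 3 (1.43-fold, adjusted p = 0.0191). The day 3 call was lost without replicate 1 of day 0 (0.36, adjusted p = 0.183), without replicate 2 of day 3 (0.46, adjusted p = 0.109) and with median scaling (0.47, adjusted p = 0.154). With CsA it read 7.88 and 8.21, 7.89 and 8.04, and 7.84 and 8.27, overlapping across days, with a change of 0.02 ± 0.17 at day 3 (adjusted p = 0.961). The interaction at day 3 was -0.50 ± 0.24 and did not pass the test (adjusted p = 0.18). CsA against none gave 0.23, -0.02 and -0.27 at days 0, 1 and 3, with adjusted p-values of 0.417, 0.966 and 0.234.

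Bmi1 was lower in the deltaCnA line. It read 7.12 and 7.27 at day 0, 6.89 and 6.74 at day 1, and 7.26 and 7.21 at day 4, all below the 12 CGR8 arrays, which 1.99% of genes also showed. At day 0 the difference from CGR8 cells was -0.62 ± 0.17 (1.53-fold lower, adjusted p = 0.0147). The call was lost without replicate 2 of day 0 of CGR8 cells (-0.46, adjusted p = 0.165), without replicate 1 of day 0 of the line (-0.54, adjusted p = 0.0996) and with median scaling (-0.61, adjusted p = 0.127). Within the line the change was -0.38 ± 0.17 at day 1 (adjusted p = 0.159) and 0.04 ± 0.17 at day 4 (adjusted p = 0.954).

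Pcgf6, the Pcgf subunit of a variant PRC1 that works with E2f6 and Mga, moved least among the called genes. Without CsA it read 11.72 and 11.61, 12.03 and 11.84, and 12.03 and 11.72 at days 0, 1 and 3. With CsA it read 11.44 and 11.64, 11.42 and 11.59, and 11.78 and 12.005. It was lower with CsA at day 1 (-0.43 ± 0.12, 1.35-fold, adjusted p = 0.0231) and rose at day 3 with CsA (0.35 ± 0.12, 1.28-fold, adjusted p = 0.0308). The first call was lost without replicate 1 of day 1 without CsA (-0.34, adjusted p = 0.198) or with CsA (-0.34, adjusted p = 0.228), and the second when day 0 replicate 1 (0.25, adjusted p = 0.23) or day 3 replicate 2 (0.24, adjusted p = 0.249) was left out. With median scaling neither passed (adjusted p = 0.339 and 0.519), nor with no intensity trend (adjusted p = 0.072 and 0.0769), nor the second with no detection filter (adjusted p = 0.0555). Its changes without CsA were 0.27 ± 0.12 at day 1 (adjusted p = 0.207) and 0.21 ± 0.12 at day 3 (adjusted p = 0.182, and 0.37 with adjusted p = 0.0465 without replicate 2 of day 3). In the deltaCnA line it read 11.60 to 11.93.

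**Figure D4:**
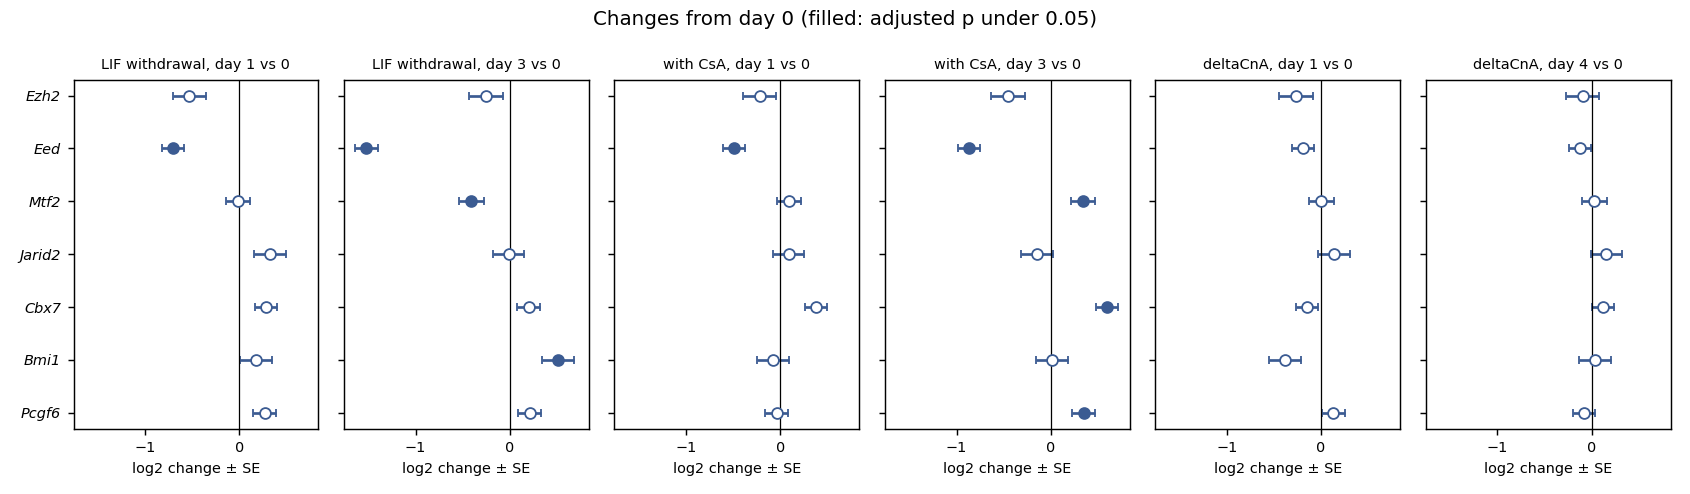
Log2 change from day 0 (x axis, points, with bars of ± 1 SE from the limma fit) of the 7 kept genes (y axis) in 6 comparisons. Filled points passed an adjusted p of 0.05. Eed lies to the left of 0 in the 4 comparisons of LIF withdrawal, and no point is filled in the 2 comparisons of deltaCnA induction.

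Across comparisons, induction of deltaCnA gave no call among the 7 genes. At day 1 the limma test gave 0 calls, 1 gene (Bmi1) had an unadjusted p under 0.05, and the largest change was 0.38 in size. These values use the brightest probe of each gene. The second Mtf2 probe changed by -0.47 at day 1 and passed in the limma fit over all probes (adjusted p = 0.0339, 8.34% of probes called). At day 4, 0 were called and 0 had an unadjusted p under 0.05. The largest change there was 0.16 in size, for Jarid2, which was detected on 0 of the arrays compared. Of the genes detected there, the largest changes were those of Eed (-0.12) and Cbx7 (0.12). The interaction at day 1 likewise gave 0 calls and 0 unadjusted p-values under 0.05, with a largest value of 0.31 in size. All 3 counts were 0 under each of the 11 alternative settings and without each array.

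The genes most like Eed over the 9 group means were Hmces (r = 0.983), Ckb, the brain creatine kinase (r = 0.981), Pmel, a pigment cell matrix protein (r = 0.980), and Cdk2, a cell cycle kinase (r = 0.976). For Ezh2 the group means form separate clusters by line, so no value over all 9 is given. The 4 genes picked for it by r over all 9 group means were Rhox9, Trub2, Elp6 and Prpf3. Over the 6 CGR8 groups, which are among the 9 used to pick them, they had r = 0.907, 0.908, 0.878 and 0.983. They were 1.52, 0.34, 0.28 and 0.65 higher on the log2 scale in the deltaCnA line at day 0. These correlations describe group means that share arrays and normalization.

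Of 39 other Polycomb genes listed, 34 had a probe and 32 were tested. Percentages after the counts are again shares of all genes called in that direction, and a count near its share is no result about the list. At day 3 of LIF withdrawal 9 rose (18.4%) and 6 fell (19.8%), with a median change of 0.09 against -0.05 over all genes. Auts2, a partner of PRC1 variants, rose 2.92-fold (1.55 ± 0.14), and Rbbp7, a histone chaperone shared by PRC2, rose 1.96-fold (0.97 ± 0.15). Epop and Phf19, both accessory subunits of PRC2, fell 2.78-fold (-1.48 ± 0.15) and 2.06-fold (-1.04 ± 0.17). Asxl3 (0.79) and E2f6 (0.74) rose too, and all 6 had adjusted p-values of at most 0.000619 in limma. With CsA, 4 rose (14.9%) and 6 fell (14.6%) at day 3 (median 0.00 against -0.01), with Auts2 (1.24), Epop (-0.95), Phf19 (-0.79) and Asxl3 (0.68) in the same directions, and Dcaf7 (-0.80) and Phc2 (-0.62) lower. At day 1, 3 rose (3.72%) and 0 fell (4.69%) without CsA (Auts2 0.81, L3mbtl2 0.58 and E2f6 0.42, median 0.09 against -0.01), and 2 rose (2.34%) and 0 fell (2.19%) with it (Bcor 0.73 and L3mbtl2 0.50, median 0.08 against 0.00).

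CsA against none at day 3 gave 5 higher (19%) and 8 lower (19.1%) of the 32 (median -0.02 against 0.01). The largest were Phc2, a polyhomeotic subunit of PRC1 (-1.30), Rbbp7 (-1.07), Scmh1 (0.89), Phc3 (0.86), L3mbtl2 (-0.80) and Cbx2 (-0.79). In the interaction at day 3, 2 were higher (7.99%) and 5 lower (7.3%) (median -0.03 against 0.02), led by Phc2 (-1.36), Scmh1 (1.12), Rbbp7 (-1.03), E2f6 (-0.83), Pcgf5 (-0.75) and Rbbp4 (0.55). At day 0, 2 were higher (6.17%) and 3 lower (6.99%) with CsA (Bcor -0.69, L3mbtl2 -0.64, E2f6 0.64, Aebp2 0.52 and Rbbp4 -0.50, median -0.01 against -0.02), and at day 1, 1 was higher (5.42%) and 3 lower (5.34%) (L3mbtl2 -0.72, Pcgf2 0.59, Rbbp4 -0.46 and Dcaf7 -0.40, median -0.01 against 0.00). None was called in the interaction at day 1. On induction of deltaCnA 5 rose (6.54%) and 0 fell (4.63%) at day 1 (Scmh1 0.73, Dcaf7 0.56, Bap1 0.54, Phc2 0.51 and E2f6 0.46, median 0.07 against 0.01), and 0 rose (2.65%) and 1 fell (0.774%) at day 4 (Auts2 -0.81, median -0.07 against 0.01). Between the lines at day 0, 4 were higher (6.65%) and 3 lower (10.8%) in the deltaCnA line, with Asxl2 (0.77), Rbbp7 (0.71) and Auts2 (0.42) higher and Asxl3 (-0.61), Dcaf7 (-0.47) and Epop (-0.44) lower (median 0.03 against -0.01).

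Of 40 developmental genes listed as textbook Polycomb targets in ES cells, 35 had a probe and 19 passed the detection filter. The binding of Polycomb proteins was not measured here. A gene that passed only through the group where it was high tends to differ by that choice, so these counts and medians are no result about Polycomb targets. At day 3 of LIF withdrawal 6 of the 19 rose (18.4%) and 3 fell (19.8%), with a median of 0.29 against -0.05. Pax6, a neural regulator, rose 5.11-fold. Nkx2-2, Msx1 and Irx3 were detected on 0 arrays at day 0 and on both at day 3. They were at least 3.08-fold, 3.04-fold and 2.37-fold higher. Tbx3, a LIF-responsive regulator of pluripotency, fell 12.2-fold, and the growth factor gene Bmp4 fell 4.81-fold. With CsA 5 rose (14.9%) and 2 fell (14.6%) (median 0.09 against -0.01), Tbx3 fell 1.68-fold, and Tbx3 was 10.7-fold higher with CsA than without at day 3. There 2 were higher (19%) and 5 lower (19.1%) with CsA (median -0.17 against 0.01). The interaction called 2 higher (7.99%) and 3 lower (7.3%), of which Tbx3 (2.86) was detected in every group compared. Gata6, higher, and Nkx2-2, Msx1 and Gata3, lower, were undetected on arrays of some groups compared, so no size is given for them. Medians over the list include such dim genes. At day 1 of LIF withdrawal 2 rose (3.72%) and 3 fell (4.69%) without CsA (median 0.02 against -0.01) and 2 rose (2.34%) and 2 fell (2.19%) with it (median -0.02 against 0.00). CsA against none gave 1 higher (6.17%) and 2 lower (6.99%) at day 0 (median -0.02 against -0.02) and 2 higher (5.42%) and 2 lower (5.34%) at day 1 (median 0.00 against 0.00), and 0 passed in the interaction at day 1. On induction of deltaCnA 2 rose (6.54%) and 0 fell (4.63%) at day 1 (Sox7 and Bmp4, median 0.04 against 0.01), and 1 rose (2.65%, Bmp4, 1.87-fold) and 2 fell (0.774%) at day 4 (Pax6 3.13-fold and Gsc 1.99-fold, median -0.03 against 0.01). In the deltaCnA line at day 0, where Ezh2 was higher, 1 of the 19 was higher (6.65%, Pax6, 3.00-fold) and 3 were lower (10.8%, Eomes, at least 1.63-fold, Sox7, at least 1.02-fold, and Nodal, 1.31-fold), with a median of 0.06 against -0.01.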

How the data were processed

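The authors deposited probe intensities on a linear scale that, per the file headers, were not normalized, with a detection p-value for each, which the authors' deposited table gives per probe and array. Trizol RNA was made into biotinylated cRNA, per the labels' protocols. The sources used here do not name the scanner software. The deposited series matrix, also intensities, ranked the probes of each of the 18 arrays as the main table did, with medians of 10.9 on a linear scale. Its scaling is not stated, and it served as an alternative.

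Background was modelled with normexp from the detection p-values (limma 3.58.1, R 4.3.3, offset 16), arrays were quantile normalized on the linear scale and taken to log2. Probes detected at p under 0.05 on both arrays of a group were kept, and the brightest kept probe stood for a gene. Of 46632 probes, 29976 had 1 symbol, 10 several and 16646 none, and 5642 of the kept probes had no name. Groups came from the sample titles. One linear model of 9 group means (9 residual degrees of freedom, eBayes with an intensity trend) gave 12 contrasts, with p-values adjusted by Benjamini-Hochberg over all 10980 genes. A fold is "at least" where a dim group missed detection on either of its arrays. The number of arrays limits the precision.

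The rule named all 10 genes in each comparison, of which 7 had values to test, with up to 6 called genes of largest change from each of 2 further lists. The members, lists and tests were chosen with earlier results of these data known. The fit was tested on data with known changes.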

Additional observations from a re-analysis of the deposited data

Results flagged for a closer look

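Both results here were picked because the change from day 0 to day 3 of LIF withdrawal differed with CsA by the limma interaction test. Eed had a difference of 0.66 ± 0.17 (adjusted p = 0.00932), from a change of -1.52 without CsA and -0.87 with it. The order of the arrays at day 3 (8.93 and 9.16 without CsA, 9.24 and 9.42 with it) is the reverse of that at day 0. The dim second probe of Eed gave -0.36 ± 0.30 (adjusted p = 0.527). Mtf2 had a difference of 0.75 ± 0.18 (adjusted p = 0.00668), from a change of -0.41 without CsA and 0.34 with it, and its second probe had 1.16 ± 0.19. At day 3 the summed level of the ES cell markers, which did not all move alike, was 18058 to 19393 without CsA and 31199 to 31210 with it. The part of this sum in these differences was not tested.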

How the results depend on the processing

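Each comparison was repeated under 11 alternative settings (10 between the lines, where processing the deltaCnA arrays separately was not possible) and without each array. Of 1297 values of single members under them, 1234 stayed on their side of the threshold, 50 lost a call and 13 gained one. Among values called in the main fit or the alternative, 0 reversed direction. Direction was not compared where neither fit called the gene. Jarid2 has no value among probes detected on all 18 arrays. The number of called members moved by over 1.5 times as follows. At day 1 of LIF withdrawal it was 1, and 2 with a replicate block, which added Ezh2 (adjusted p = 0.0375). At day 1 with CsA it was 1, then 0 with median scaling, 0 with the mean of kept probes and 2 with only the groups compared. At day 3 with CsA it was 4, then 1 with median scaling, 2 with no detection filter and 2 with no intensity trend. For CsA against none at day 0 it was 2, then 0 with median scaling and 1 with no detection filter, the mean of kept probes, no intensity trend, only the groups compared, or the deltaCnA arrays processed separately. At day 1 it was 1, then 0 with median scaling and 0 with no intensity trend. For the interaction at day 3 it was 2, then 1 with median scaling (Eed 0.75, adjusted p = 0.174) and 1 with the mean of kept probes. Between the lines it was 2, then 1 with median scaling. Smaller moves were from 3 to 2 at day 3 of LIF withdrawal (median scaling lost Bmi1, no intensity trend lost Mtf2), and at day 3 with CsA from 4 to 3 under 4 settings that lost Mtf2 and to 5 among probes detected on all 18 arrays, which added Ezh2. The cause was not tested. Without each array in turn the counts ran from 1 to 3 and 2 to 4 (LIF withdrawal, days 1 and 3), 0 to 1 and 2 to 4 (with CsA), 0 to 2, 0 to 1 and 2 to 3 (CsA against none, days 0, 1 and 3), 0 to 0 and 1 to 2 (interaction, days 1 and 3), 0 to 0 for both days of deltaCnA and 1 to 2 between the lines.

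The labels do not say whether replicate numbers pair the arrays. Over 36 pairs of groups, the replicate differences correlated from -0.206 to 0.353 (median 0.0558, 16 over 0.1), which does not settle it. A replicate block raised the number of all genes called in every comparison, from 924 to 1025 at day 1 of LIF withdrawal and from 1446 to 1671 for CsA against none at day 0. With the replicate block Ezh2 also passed at day 3 with CsA (adjusted p = 0.0343), making 5 calls, and no other call among the members changed.

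Median scaling moved the median of all genes by over 0.1 in 2 comparisons, to -0.187 at day 1 of LIF withdrawal and to 0.152 in the interaction at day 1. It moved the share of calls that were higher from 44.3% to 20% at day 1 of LIF withdrawal, 51.6% to 34.1% at day 1 with CsA, 46.9% to 35.7% for CsA against none at day 0, and 50.4% to 69.2% at day 1. It also cut the number of genes called: for CsA against none from 1446 to 429 at day 0, 1181 to 399 at day 1 and 4183 to 2630 at day 3, with CsA from 498 to 220 at day 1 and 3246 to 1780 at day 3, in the interaction at day 3 from 1678 to 793, for deltaCnA from 1226 to 468 and 376 to 171, and between the lines from 1911 to 791. Without single arrays, the number of all genes called fell to between 476 and 727 at day 1 of LIF withdrawal (from 924), 236 and 294 at day 1 with CsA, 2032 and 2781 at day 3 with CsA, 465 and 1065 (CsA at day 0), 446 and 766 (day 1), 239 and 1099 (deltaCnA day 1), 108 and 230 (day 4) and 803 and 1588 (between the lines), and ran from 998 to 1804 in the interaction at day 3 and 2 to 8 at day 1. Dim probes (Suz12, Rnf2, Jarid2) are limited by signal over background.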
